A study of Mus musculus with 58 samples.

Results

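Snap25, Stx1a, Vamp1, Vamp2, Syt1, Unc13a, Cplx1 and Nsf encode proteins that prepare synaptic vesicles for release, fuse them with the presynaptic membrane and recycle the fusion machinery. They were chosen by symbol with earlier results of these data known, and all 8 were found among the 15171 genes of the deposited count table. The study had already named Snap25 and Stx1a as central genes of a co-expressed set that was lower after injury in these mice. RNA was sequenced from cortical and hippocampal tissue of the injury site in 58 mice, 14 days after controlled cortical impact (TBI) or sham surgery. The impact is a single blow of a metal tip onto the exposed left parietal cortex, and Sham mice had the same anesthesia and craniotomy with no impact. All mice were 3 months old at surgery, on a C57BL/6 background and of both sexes, and all carried a human APOE isoform in place of the mouse gene. E3/Abca1+/+ (8 Sham, 8 TBI) and E4/Abca1+/+ (7 Sham, 7 TBI) mice had human APOE3 or APOE4 with both Abca1 copies, and E3/Abca1+/- (7 Sham, 6 TBI) and E4/Abca1+/- (7 Sham, 8 TBI) mice had the same isoforms with 1 functional Abca1 copy. The study asked how loss of an Abca1 copy changes the transcriptional response to injury in each isoform, and its comparisons are followed here for the release genes.

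At a nerve terminal, a vesicle docks at the active zone, is primed into a ready state and fuses when calcium enters. Fusion is driven by SNARE proteins, helices on the vesicle (synaptobrevins, encoded by Vamp1 and Vamp2) and on the plasma membrane (syntaxin, encoded by Stx1a, and SNAP-25) that zip into a bundle and pull both membranes together. Synaptotagmin 1 (Syt1) is the calcium sensor, Munc13-1 (Unc13a) primes vesicles by opening syntaxin, complexin 1 (Cplx1) clamps and then aids the assembled bundle, and the ATPase NSF (Nsf) takes spent bundles apart for reuse. Snap25 and Syt1 are transcribed by most neurons of cortex and hippocampus, whereas Vamp1 and Cplx1 are known to be rich in parvalbumin interneurons and other fast-firing neurons.

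Promoter sequences give the genes' local context. RefSeq windows of 250 bases before a gene's start (assembly GRCm38.p6, the assembly behind mm10) were matched for 6 of the 8 genes, all but Snap25 and Vamp2. The windows below belong to Cplx1 and Unc13a, which fell most after injury among the genes whose window lies outside annotated transcripts, and to Nsf, which fell least among them. Capitals mark the GC box (GGGCGG, or CCGCCC on the other strand) and the core of the cAMP response element (TGACG, or CGTCA on the other strand), which were searched on both strands together with the CCAAT box (CCAAT or ATTGG). All 3 genes lie on the minus strand, and the windows are written 5′ to 3′ along the gene, at chr5:108550028-108550277 for Cplx1, chr8:71671758-71672007 for Unc13a and chr11:103954057-103954306 for Nsf.
Cplx1: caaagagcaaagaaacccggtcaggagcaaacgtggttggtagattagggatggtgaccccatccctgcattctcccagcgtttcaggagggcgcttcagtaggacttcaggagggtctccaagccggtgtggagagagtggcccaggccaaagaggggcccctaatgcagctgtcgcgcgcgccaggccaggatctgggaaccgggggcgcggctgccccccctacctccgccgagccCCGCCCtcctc
Unc13a: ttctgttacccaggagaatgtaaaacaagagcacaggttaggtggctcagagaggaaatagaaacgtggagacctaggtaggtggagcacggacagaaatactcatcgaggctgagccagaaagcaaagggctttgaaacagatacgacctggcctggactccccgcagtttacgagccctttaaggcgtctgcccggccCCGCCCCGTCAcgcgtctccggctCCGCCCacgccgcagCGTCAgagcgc
Nsf: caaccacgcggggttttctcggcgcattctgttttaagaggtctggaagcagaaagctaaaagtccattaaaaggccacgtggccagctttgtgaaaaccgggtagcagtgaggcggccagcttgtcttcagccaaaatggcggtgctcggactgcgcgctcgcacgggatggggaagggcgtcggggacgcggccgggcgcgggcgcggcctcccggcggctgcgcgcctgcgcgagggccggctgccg
The Unc13a window held 2 GC boxes and 2 cAMP response element cores, with 1 core directly adjoining a GC box. The Cplx1 window held 1 GC box, and the Nsf window held none of the searched letters at a GC content of 66%, against a median of 59.6% over 15023 windows. Over the 6 genes with a window, 5 held a GC box (55.19% of all windows did), 2 held a CCAAT box (34.58% of all windows) and 2 held the cAMP response element core (24.98% of all windows). Such matches describe letters in a window and say nothing of a bound factor.

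Total counts per mouse ran from 4421308 to 37877346, with a median of 18871446 in the 28 Abca1+/- mice and 8350020 in the 30 Abca1+/+ mice, so depth and Abca1 genotype moved together. The lowest count of any release gene in any mouse was 395 (Vamp1) and the highest 113104 (Snap25). Abca1 itself was lower in Abca1+/- than in Abca1+/+ mice averaged over the other factors (−0.42 on the log2 scale, standard error 0.09, edgeR adjusted p = 0.000816), with single comparisons from −0.71 to −0.18 of which E3 Sham mice alone passed (adjusted p = 0.00999). The tissue carried the markers of its labelled regions, with 375 to 580.6 summed CPM (counts relative to the scaled library total) over 7 cortex markers and 406 to 567 over 7 hippocampus markers in Sham mice, and summed choroid plexus markers varied between mice from 9.28 to 2035 CPM. After TBI, all 8 microglia and macrophage markers and all 6 astrocyte markers rose. Summed microglia markers were 318 to 495 CPM in Sham and 587 to 1251 CPM in TBI mice, and summed astrocyte markers 4594 to 5980.2 and 5793 to 9678 CPM. Summed levels of 10 pan-neuronal markers were 3985 to 4563 CPM in Sham and 3268 to 4201 CPM in TBI mice. In bulk tissue, fewer cells of a type and less RNA per cell cannot be told apart.

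Per length of transcript, the release genes spanned the upper range of the transcriptome in Sham mice. Levels are given here as RPKM (CPM divided by the RefSeq exon length in kilobases), the only scale on which genes are compared with each other. Snap25, at 1430.3 ± 69.1 RPKM (SD, n = 29), ranked first of 13831 genes with a length. Vamp2 (594 ± 25.2, rank 19), Syt1 (449.9 ± 25.7, rank 33), Nsf (361 ± 14.2, rank 53) and Cplx1 (308 ± 25.5, rank 73) followed among the most abundant transcripts. Stx1a stood at 122 ± 9.55 RPKM (rank 338). Vamp1 (46.1 ± 7.20, rank 1339) and Unc13a (36.6 ± 2.71, rank 1798) were lowest, Unc13a having the longest exons at 10255 bases. Neighbours in this order kept it in all 29 Sham mice, except that Cplx1 exceeded Nsf in 1 mouse and Unc13a exceeded Vamp1 in 1 mouse. The vesicle SNARE Vamp2 was thus far above its relative Vamp1 in every Sham mouse.

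**Figure D1:**
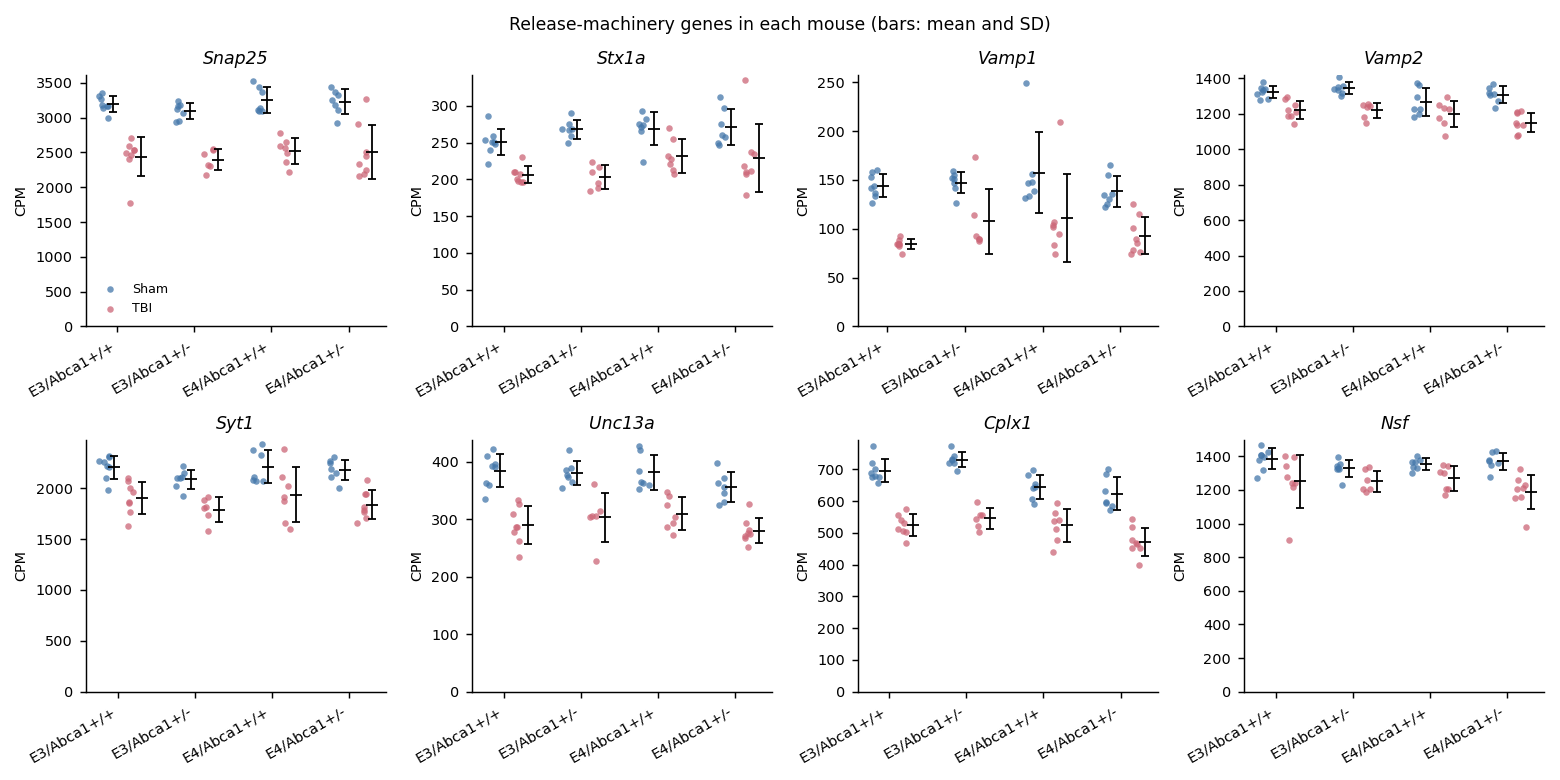
Level of each release gene in each mouse, in CPM with TMM scaling (y axis, from 0), for Sham (blue) and TBI (red) mice of the 4 genotypes, with bars for the mean and SD of the group (6 to 8 mice). Snap25 TBI mice lie below the Sham mice of their genotype except 1 mouse in E4/Abca1+/-, and single mice stand high for Vamp1 in 3 groups, at 173, 248.7 and 209.5 CPM.

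All 8 genes were lower in TBI than in Sham mice when the 4 genotypes were averaged. Since the genes were chosen with earlier results of these data known, their shared fall is a description and not an independent test. Their log2 fold changes ran from −0.58 (Vamp1) to −0.13 (Vamp2 and Nsf), with a median of −0.31 beside 0.01 over all genes. Of all genes tested, 24.3% were called lower and 29% higher in this comparison (edgeR's quasi-likelihood test, Benjamini-Hochberg adjusted p under 0.05). With library totals in place of TMM factors the share of all calls that were higher moved from 54.4% to 67.9%, and all 8 release genes were still called lower. The summed level of the 8 genes was 9499 ± 299.97 CPM (SD, n = 29) in Sham and 7898 ± 565 CPM (n = 29) in TBI mice.

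Within single genotypes the count of genes called lower was 7 of 8 in E3/Abca1+/+ (9.49% of all genes were), 7 of 8 in E3/Abca1+/- (10.1% of all genes), 4 of 8 in E4/Abca1+/+ (4.5% of all genes) and 7 of 8 in E4/Abca1+/- (12.7% of all genes). None was called higher, and every fold change was below 0. With library totals alone the share of all calls that were higher moved from 58.3% to 71.5%, from 67.2% to 80.3% and from 60.8% to 74.0% in E3/Abca1+/+, E4/Abca1+/+ and E4/Abca1+/- mice. Nsf did not pass in E3/Abca1+/+, E3/Abca1+/- and E4/Abca1+/+ mice, and Stx1a did not pass in E4/Abca1+/- mice. In E4/Abca1+/+ mice Vamp1, Vamp2 and Syt1 did not pass either. A stricter description asks whether every TBI mouse lay below every Sham mouse of its genotype. That held for 4 genes in E3/Abca1+/+ (2.03% of all genes), 5 in E3/Abca1+/- (3.39%), 2 in E4/Abca1+/+ (0.765%) and 2 in E4/Abca1+/- mice (2.39%). These p-values treat mice as the replicates, and whether mice shared a litter or cage is not given in the sources used here.

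**Figure D2:**
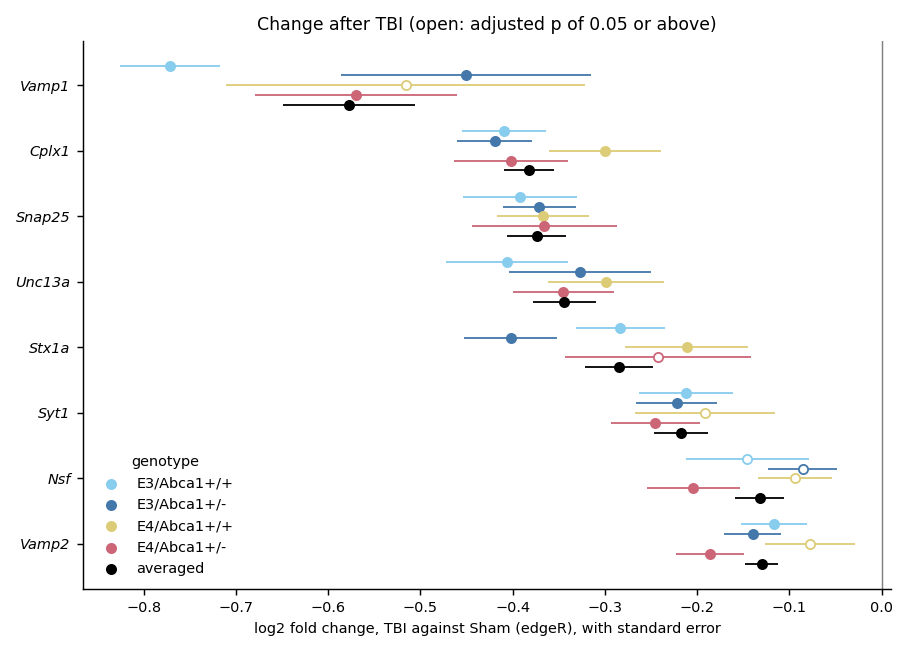
Log2 fold change of TBI against Sham (x axis, edgeR) for each release gene (y axis) in each genotype and averaged over genotypes (black), with the standard error as a bar and open points where the adjusted p was 0.05 or above. All points lie left of 0, from −0.77 for Vamp1 in E3/Abca1+/+ to −0.08 for Vamp2 in E4/Abca1+/+ mice.

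Among the target-membrane SNAREs, Snap25 (chr2:136713453-136782428, plus strand) fell by 22.8%, averaged over genotypes. It lay between 2993 and 3357 CPM in E3/Abca1+/+ Sham mice (median 3174) and between 1781 and 2710.2 CPM in TBI mice of that genotype (median 2511). In E3/Abca1+/- mice the Sham range was 2937 to 3236 CPM (median 3129) and the TBI range 2178 to 2555 CPM (median 2399). E4/Abca1+/+ mice had 3089 to 3532 CPM in Sham (median 3136) and 2216 to 2783 CPM in TBI (median 2566). Sham and TBI mice did not overlap in these 3 genotypes. E4/Abca1+/- Sham mice had 2921 to 3436 CPM (median 3259) and TBI mice 2157 to 3265 CPM (median 2388.9), and 1 of the 8 TBI mice reached the Sham range. The log2 fold change was near −0.37 in every genotype, from −0.39 (E3/Abca1+/+, standard error 0.06, adjusted p = 7.97e-05) to −0.37 (E4/Abca1+/-, standard error 0.08, adjusted p = 0.00158), and −0.37 averaged (standard error 0.03, adjusted p = 5.38e-15).

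Stx1a (chr5:135023482-135051100, plus strand), the syntaxin of the plasma membrane, fell by 17.9% averaged over genotypes. It was 221 to 286 CPM in E3/Abca1+/+ Sham mice (median 250.3) and 196 to 231 CPM after TBI (median 203), with 1 TBI mouse inside the Sham range. E3/Abca1+/- mice showed the widest gap, from 249 to 290.4 CPM in Sham (median 268) against 184 to 224 CPM in TBI (median 202), and there the groups did not overlap. In E4/Abca1+/+ mice the ranges were 223 to 292 CPM (Sham, median 273) and 207 to 269.98 CPM (TBI, median 227), and 4 of 7 TBI mice lay inside the Sham range. E4/Abca1+/- Sham mice had 246 to 311 CPM (median 260.1) and TBI mice 179 to 335 CPM (median 215). In that last group 7 of 8 TBI mice lay below every Sham mouse and the remaining mouse lay above every Sham mouse. Log2 fold changes were −0.28 (adjusted p = 0.000189), −0.40 (adjusted p = 2.42e-05), −0.21 (adjusted p = 0.0430) and −0.24 (adjusted p = 0.0756) in the same order, and −0.28 averaged (standard error 0.04, adjusted p = 2.79e-09). The high mouse had the lowest summed hippocampus markers of its group (420.4 CPM, the others 476 to 527) and the highest summed cortex markers (567 CPM, the others 222 to 349). Its summed microglia markers (1251 CPM) were also the highest of the group. The same mouse had the highest Snap25 (3265 CPM), Vamp1 (126 CPM), Vamp2 (1213 CPM), Unc13a (326 CPM) and Cplx1 (544 CPM) of its group and the lowest Nsf (980.4 CPM). Without it, Stx1a was at −0.34 in E4/Abca1+/- mice and was called (adjusted p = 0.000641).

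Of the vesicle SNAREs, Vamp2 (chr11:69088490-69092384, plus strand), the main synaptobrevin of forebrain synapses, fell by 8.63% averaged over genotypes. Its groups were narrow, with a coefficient of variation of 2.52 to 6.19% among Sham groups, and the small change was resolved in 3 of 4 genotypes. E3/Abca1+/- mice went from 1297 to 1404 CPM in Sham (median 1342) to 1145 to 1255 CPM in TBI (median 1238), and E4/Abca1+/- mice from 1229.5 to 1369.5 CPM (median 1310.4) to 1075 to 1213 CPM (median 1142). Neither pair of groups overlapped. E3/Abca1+/+ mice had 1277 to 1381 CPM in Sham (median 1327) and 1140.5 to 1292 CPM in TBI (median 1215), with 6 of 8 TBI mice below every Sham mouse. E4/Abca1+/+ mice had 1184 to 1375 CPM (median 1229) and 1073 to 1294 CPM (median 1224.5), largely overlapping. The log2 fold change was −0.14 in E3/Abca1+/- (standard error 0.03, adjusted p = 0.00322), −0.19 in E4/Abca1+/- (standard error 0.04, adjusted p = 0.000799), −0.12 in E3/Abca1+/+ (adjusted p = 0.0203) and −0.08 in E4/Abca1+/+ mice (standard error 0.05, adjusted p = 0.334). Averaged, it was −0.13 (standard error 0.02, adjusted p = 7.35e-09).

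Vamp1 (chr6:125215551-125245964, plus strand), the synaptobrevin of fast-firing neurons, had the largest fold change of the 8 genes and fell by 33.0% averaged over genotypes. In E3/Abca1+/+ mice it was 126 to 160.4 CPM in Sham (median 143) and 74.5 to 92.4 CPM in TBI (median 84.3), with no overlap. E3/Abca1+/- mice had 127 to 159 CPM in Sham (median 150.4) and 87.1 to 173 CPM in TBI (median 91.2), with 5 of 6 TBI mice below every Sham mouse and 1 above all of them. E4/Abca1+/+ mice had 132 to 248.7 CPM (median 146) and 74.5 to 209.5 CPM (median 102), with 6 of 7 TBI mice below every Sham mouse. E4/Abca1+/- mice had 122 to 166 CPM in Sham (median 134) and 74.2 to 126 CPM in TBI (median 87.3), with 7 of 8 TBI mice below every Sham mouse. Log2 fold changes were −0.77 in E3/Abca1+/+ (standard error 0.05, adjusted p = 7.38e-09), −0.45 in E3/Abca1+/- (standard error 0.14, adjusted p = 0.0232), −0.52 in E4/Abca1+/+ (standard error 0.19, adjusted p = 0.0909) and −0.57 in E4/Abca1+/- mice (standard error 0.11, adjusted p = 0.000651). The average was −0.58 (standard error 0.07, adjusted p = 7.76e-10).

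The 3 mice with the highest Vamp1 levels were also the 3 with the highest summed levels of 6 thalamus markers, among them Tcf7l2, a transcription factor of thalamic neurons, and Slc17a6, the vesicular glutamate transporter of subcortical neurons. An E4/Abca1+/+ Sham mouse had 248.7 CPM of Vamp1 and 208 CPM of summed thalamus markers, where the other mice of its group had 62.2 to 95.5 CPM of these markers. An E4/Abca1+/+ TBI mouse had 209.5 CPM of Vamp1 and 162 CPM of the markers (others 59.9 to 91.4), and an E3/Abca1+/- TBI mouse 173 and 127 CPM (others 54.2 to 72.5). Subcortical tissue was dissected out before RNA was isolated, and 1 of the 6 thalamus markers averaged under 1 CPM in 3 of the 8 groups. Without these 3 mice, chosen after their values were seen, Vamp1 was at −0.66 averaged (adjusted p = 3.42e-18), at −0.65 in E3/Abca1+/- (adjusted p = 9.69e-06) and at −0.60 in E4/Abca1+/+ mice (adjusted p = 0.000445). The call in E4/Abca1+/+ mice was thus absent with all mice and present without these. The same 3 mice also had the highest summed level of their group for 7 genes listed for parvalbumin interneurons and axons. It was 1397 CPM in the E4/Abca1+/+ Sham mouse (others 1196 to 1299). The E4/Abca1+/+ TBI mouse had 1178 CPM (others 880 to 1097) and the E3/Abca1+/- TBI mouse 1049.7 CPM (others 924 to 1045.7). The part of either signal in the Vamp1 level of these mice was not tested beyond leaving them out.

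**Figure D3:**
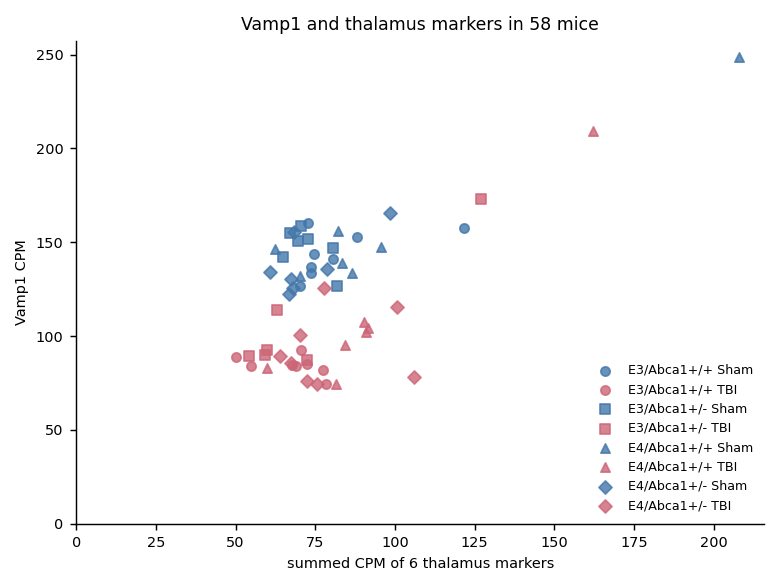
Vamp1 level (y axis, CPM) against the summed level of 6 thalamus markers (x axis, CPM) in the 58 mice, blue for Sham and red for TBI, with a symbol for each genotype. The 3 mice at 127, 162 and 208 CPM of thalamus markers have the highest Vamp1 levels, and at lower marker levels most Sham mice lie above the TBI mice.

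The calcium sensor Syt1 (chr10:108497650-109010982, minus strand) fell by 14.0% averaged over genotypes. E3/Abca1+/+ mice had 1986 to 2318.5 CPM in Sham (median 2236) and 1629 to 2101.5 CPM in TBI (median 1912), with 5 of 8 TBI mice below every Sham mouse. E3/Abca1+/- mice had 1918 to 2214.98 CPM (median 2103) and 1578 to 1917 CPM (median 1810.3), where the lowest Sham mouse lay just above the highest TBI mouse. In E4/Abca1+/+ mice the ranges were 2068 to 2432 CPM (median 2109.1) and 1596 to 2385 CPM (median 1911), with 5 of 7 TBI mice below every Sham mouse. E4/Abca1+/- mice had 2005 to 2303 CPM (median 2183) and 1654 to 2084 CPM (median 1800.4), with 7 of 8 TBI mice below every Sham mouse. The log2 fold change was −0.21 (adjusted p = 0.00419), −0.22 (adjusted p = 0.00150), −0.19 (adjusted p = 0.108) and −0.25 (adjusted p = 0.000785) in this order, so the genotype that did not pass had a like size with a larger standard error (0.08 against 0.04 to 0.05). Averaged, it was −0.22 (standard error 0.03, adjusted p = 6.60e-09).

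Cplx1 (chr5:108518554-108550024, minus strand), the complexin of fast synapses, had the smallest p of the 8 genes and passed in every genotype. E3/Abca1+/+ mice had 657 to 772 CPM in Sham (median 684) and 467 to 576 CPM in TBI (median 521). In E3/Abca1+/- mice the ranges were 696 to 774 CPM (median 730.1) and 502 to 598 CPM (median 550.1). E4/Abca1+/- mice had 573 to 701 CPM in Sham (median 597) and 398 to 544 CPM in TBI (median 467). These 3 genotypes showed no overlap. E4/Abca1+/+ mice had 589.9 to 699 CPM (median 645) and 440.4 to 595 CPM (median 539), with 6 of 7 TBI mice below every Sham mouse. Log2 fold changes were −0.41 in E3/Abca1+/+ (adjusted p = 1.51e-06), −0.42 in E3/Abca1+/- (adjusted p = 1.81e-06), −0.30 in E4/Abca1+/+ (adjusted p = 0.00303) and −0.40 in E4/Abca1+/- mice (adjusted p = 8.59e-05). The average was −0.38 (standard error 0.03, adjusted p = 3.24e-18), and the level fell by 23.3%.

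Unc13a (chr8:71624417-71671757, minus strand), which encodes the priming factor Munc13-1, also passed in every genotype. Its Sham and TBI ranges were 335 to 421 CPM (median 392) and 234 to 333 CPM (median 286) in E3/Abca1+/+, and 351 to 428 CPM (median 364) and 273 to 347 CPM (median 303) in E4/Abca1+/+ mice, with no overlap in either. E3/Abca1+/- mice had 354 to 419.6 CPM (median 376) and 228 to 361 CPM (median 305), and E4/Abca1+/- mice 324 to 398 CPM (median 356) and 251 to 326 CPM (median 275). A single TBI mouse reached the Sham range in each of these. The log2 fold changes lay between −0.41 (E3/Abca1+/+, standard error 0.07, adjusted p = 0.000110) and −0.30 (E4/Abca1+/+, standard error 0.06, adjusted p = 0.00411), and the average was −0.34 (standard error 0.03, adjusted p = 8.55e-13), so that the level fell by 21.2%. Its exons share 495 bases (4.83% of its exon length) with Colgalt1 on the opposite strand, and reads there cannot be told apart without strand. None of the other 7 genes shares exon bases with another annotated gene.

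Nsf (chr11:103821782-103954056, minus strand), the ATPase that disassembles SNARE bundles, changed least together with Vamp2 and fell by 8.77% averaged over genotypes. It was 1269 to 1469 CPM in E3/Abca1+/+ Sham (median 1399.9) and 904 to 1401 CPM in TBI mice (median 1258). E3/Abca1+/- mice had 1228 to 1397 CPM (median 1332) and 1188 to 1334 CPM (median 1230.4), and E4/Abca1+/+ mice 1298 to 1400.3 CPM (median 1367) and 1168 to 1349 CPM (median 1301). Groups overlapped in all of these, with 3 or 4 TBI mice of each genotype below every Sham mouse. E4/Abca1+/- mice had 1278 to 1432 CPM in Sham (median 1369.5) and 980.4 to 1322 CPM in TBI (median 1208), and 7 of 8 TBI mice lay below every Sham mouse. The log2 fold change was −0.20 in E4/Abca1+/- mice (standard error 0.05, adjusted p = 0.00484) and −0.15, −0.09 and −0.09 in E3/Abca1+/+, E3/Abca1+/- and E4/Abca1+/+ mice, with adjusted p-values of 0.124, 0.117 and 0.137. Averaged, it was −0.13 (standard error 0.03, adjusted p = 2.97e-05).

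Because neuronal markers as a group were lower after TBI, each gene was also expressed relative to 10 pan-neuronal markers of the same mouse, as log2(CPM + 1) minus their mean log2(CPM + 1). The reference itself was lower in TBI than in Sham mice by 0.21 (E3/Abca1+/+, exact permutation p = 0.000155), 0.16 (E3/Abca1+/-, exact permutation p = 0.000583), 0.16 (E4/Abca1+/+, exact permutation p = 0.00291) and 0.22 (E4/Abca1+/-, exact permutation p = 0.00109) on this scale. On the relative scale, averaged over genotypes, Vamp1 was at −0.41, Cplx1 at −0.20, Snap25 at −0.19, Unc13a at −0.16 and Stx1a at −0.10. The two-sided permutation p over 58 mice was 1e-05, the smallest that 100000 resamples can give, for Vamp1, Cplx1 and Snap25, 2e-05 for Unc13a and 0.00722 for Stx1a. Syt1 was at −0.03 (permutation p = 0.205), close to the change of the reference. Vamp2 (0.06, permutation p = 0.00766) and Nsf (0.05, permutation p = 0.0385) fell less than the reference and were higher on this scale. These p-values are not adjusted for the 8 genes.

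The same values fitted over all genes with limma called 5 release genes lower (3.87% of all genes were) and 1, Vamp2, higher (78.1% of all genes were, since the reference itself was lower after TBI). Nsf was not called there (adjusted p = 0.0658). In single genotypes limma called 4 release genes lower in E3/Abca1+/+ (1.75% of all genes) and 4 in E3/Abca1+/- mice (2.6%). It called 2 lower in E4/Abca1+/+ (0.831% of all genes) and 4 in E4/Abca1+/- mice (1.25%), and none higher in any. In single genotypes, Snap25 and Cplx1 were lower relative to the neuronal markers in all 4 (exact permutation p from 0.000155 to 0.0171, unadjusted), from −0.21 to −0.16 for Snap25 and from −0.26 to −0.14 for Cplx1. Unc13a passed in 3 genotypes (−0.20 to −0.12) and had −0.14 in E4/Abca1+/+ mice (exact permutation p = 0.0635). In E3/Abca1+/- mice its value of −0.18 (exact permutation p = 0.0303) was −0.10 without the mouse with high thalamus markers (exact permutation p = 0.0783), and it did not pass with the median of the neuronal list (exact permutation p = 0.0909) or in limma (adjusted p = 0.0513). Vamp1 passed in E3/Abca1+/+ (−0.55, exact permutation p = 0.000155) and E4/Abca1+/- mice (−0.36, exact permutation p = 0.00357). With all mice it had −0.33 in E3/Abca1+/- (exact permutation p = 0.0577, limma adjusted p = 0.0463) and −0.39 in E4/Abca1+/+ (exact permutation p = 0.0664), and without the mice with high thalamus markers it passed in both, at −0.49 (exact permutation p = 0.00253) and −0.42 (exact permutation p = 0.00216). Stx1a passed in E3/Abca1+/- mice only (−0.24, exact permutation p = 0.00175), with −0.07, −0.05 and −0.04 in the others, and whether genotypes differed on this scale was not tested. With a second list of 10 neuronal genes, Syt1 was at −0.07 (permutation p = 0.00427) and Vamp2 and Nsf at 0.02 and 0.01 (permutation p = 0.339 and 0.559), so the calls of these 3 genes depend on which neuronal genes stand for neurons. In E3/Abca1+/+ mice Vamp2 passed as higher with the first list (0.09, exact permutation p = 0.0413). It did not pass there with the second list (exact permutation p = 0.399) or in limma (adjusted p = 0.0978).

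**Figure D4:**
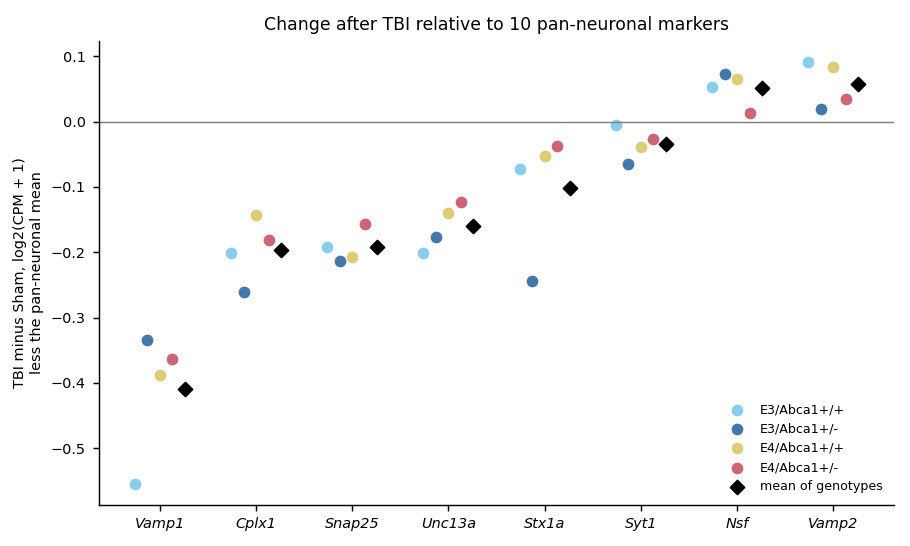
Difference between TBI and Sham means (y axis) of log2(CPM + 1) less the mean of 10 pan-neuronal markers in the same mouse, for each release gene (x axis), with a point for each genotype and a diamond for their mean. Vamp1, Cplx1, Snap25, Unc13a and Stx1a have means from −0.41 to −0.10, Syt1 lies near 0, and Nsf and Vamp2 lie above 0.

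Other genes of the release pathway moved mostly the same way in the averaged comparison, where 24.3% of all genes were called lower. All 9 relatives and partners of the synaptic SNAREs were called lower there, with a median log2 fold change of −0.17. Medians were −0.22 for priming and active zone genes, −0.13 for calcium sensors and −0.14 for vesicle membrane and recycling genes. The pan-neuronal markers and the second list of neuronal genes had medians of −0.20 and −0.14. These falls are therefore not shown to be particular to the release pathway. Of 20 priming and active zone genes 14 were called lower and the other 6 did not pass, with the smallest p for Rph3a, a Rab3 effector (438 ± 33.5 CPM in Sham, 280.1 ± 40.95 CPM in TBI, −0.64, adjusted p = 5.86e-20), and Rims2, an active zone scaffold (−0.28, adjusted p = 5.30e-14). Of 14 other synaptotagmins and calcium sensors 9 were called lower, among them Syt7 (−0.22, adjusted p = 2.01e-14) and Syt13 (−0.23, adjusted p = 7.72e-13), and 1, Syt17, higher (0.17, adjusted p = 0.00438). Cplx2, the complexin of most excitatory neurons, was called lower (−0.20, adjusted p = 4.94e-06), and Cplx3, at 0.14, was not called. Of 20 vesicle membrane and recycling genes 14 were called lower, with Dnajc5 (−0.15, adjusted p = 1.43e-10) and Syngr1 (−0.21, adjusted p = 3.07e-10) at the smallest p. In single genotypes 8 of these 20 were called lower in E3/Abca1+/+ (9.49% of all genes) and 8 in E3/Abca1+/- mice (10.1%). None was called in E4/Abca1+/+ (4.5% of all genes were lower), and 12 were lower in E4/Abca1+/- mice (12.7%).

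SNAREs of exocytosis outside the synapse mostly went the other way in the averaged comparison. Of 8 listed genes found (of 10), 5 were called higher (29% of all genes were), 2 lower and 1 did not pass, with a median of 0.22. In single genotypes 3 were called higher in E3/Abca1+/+ (13.3% of all genes) and 3 in E3/Abca1+/- mice (13.7%). In E4/Abca1+/+ mice 1 was called higher (9.24% of all genes), and in E4/Abca1+/- mice 4 were (19.7%). Vamp8, a SNARE of secretory and immune cells, rose from 6.19 ± 1.05 CPM in Sham to 11.6 ± 2.59 CPM in TBI mice (SD, n = 29 each, 0.88, adjusted p = 9.67e-16). Snap23, the widely used relative of Snap25, rose from 10.2 ± 1.66 to 14.6 ± 3.46 CPM (0.49, adjusted p = 2.89e-08). Vamp4 (−0.10, adjusted p = 5.44e-05) and Stx4a (−0.14, adjusted p = 0.000438) were lower. The rise of these genes went with that of the microglia and astrocyte markers given above, whose part in it was not tested. All 7 genes listed for parvalbumin interneurons and axons were called lower as well, with a median of −0.32. Not all of them are confined to these cells, and 1, Syt2, is also in the list of calcium sensors. The 7 included Gad1 (−0.28, adjusted p = 4.18e-14) and Nefh (−0.50, adjusted p = 5.24e-12). Their summed level was 1083 to 1397 CPM in Sham and 794 to 1178 CPM in TBI mice. Of 7 cortex markers 6 were called lower, with the smallest p for Lamp5 (−0.90) and Rspo1 (−1.18), while 5 of 7 hippocampus markers did not pass, with Wfs1 higher (0.27) and Dsp lower (−0.86). Of the 10 pan-neuronal markers 7 were called lower and 1, Gap43, higher, and of a second list of 10 neuronal genes 8 were lower. Thalamus markers were mixed (3 higher, 2 lower of 6), 2 of 6 oligodendrocyte and 3 of 4 endothelial markers were called higher, and the 4 choroid plexus markers did not pass.

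Loss of an Abca1 copy did not give a call for any release gene. With edgeR, 0 of 8 were called in E3 Sham (2.27% of all genes were), E3 TBI (0.0923%), E4 Sham (0.87%) and E4 TBI mice (1.36%), and DESeq2 called 0 in each. At an unadjusted p under 0.05 the counts were 2, 1, 0 and 2. The largest fold changes belonged to Vamp1, at 0.35 (standard error 0.13, adjusted p = 0.371) in E3 TBI mice, and at −0.25 (standard error 0.18, adjusted p = 0.502) in E4 TBI mice. Without the 3 mice with high thalamus markers these were 0.16 (adjusted p = 0.532) and −0.02 (adjusted p = 0.954). Fold changes of the other 7 genes lay between −0.15 and 0.10. Averaged over isoform and injury, 0 of 8 were called (17.9% of all genes were), and DESeq2 called 0. There 1 release gene passed unadjusted (Syt1, −0.07, standard error 0.03, adjusted p = 0.112), as did 4586 of all genes. Snap25, for example, was at −0.02 with a standard error of 0.03. Since depth differed with Abca1 genotype, all libraries were also thinned to a common total, and again 0 release genes were called in each of these comparisons (edgeR, with 0, 1, 0, 2 and 1 at an unadjusted p under 0.05). The matching unadjusted counts over all genes after thinning are not given here.

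APOE isoform was tied to smaller differences in 3 genes, of which Cplx1 had the clearest. E4/Abca1+/- Sham mice had 573 to 701 CPM of Cplx1 (median 597) and E3/Abca1+/- Sham mice 696 to 774 CPM (median 730.1), with a single E4 mouse reaching the E3 range. The log2 fold change, APOE4 against APOE3, was −0.23 (standard error 0.05, adjusted p = 0.00998), the only call of 8 genes in that comparison (5.11% of all genes were called). Injured Abca1+/- mice had a like value, −0.21 (standard error 0.06, adjusted p = 0.0747). That comparison held 0 calls by edgeR (2.74% of all genes) and 1 call by DESeq2, again Cplx1. At an unadjusted p under 0.05 it had 1 release gene, beside 2901 of all genes. In Abca1+/+ mice Cplx1 was at −0.11 in Sham (adjusted p = 0.437) and close to 0 in TBI mice. These comparisons held 0 calls by edgeR and 0 by DESeq2 (0.356% and 0.211% of all genes were called). At an unadjusted p under 0.05 they had 1 and 2 release genes, beside 1337 and 1090 of all genes (edgeR).

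Averaged over Abca1 genotype and injury, 3 of 8 genes differed by isoform, where 15% of all genes did. Cplx1 was lower with APOE4 (−0.14, standard error 0.03, adjusted p = 0.000202), as was Vamp2 (−0.05, standard error 0.02, adjusted p = 0.0332). Stx1a was higher with APOE4 (0.12, standard error 0.04, adjusted p = 0.0259). In single comparisons Stx1a was not called, at 0.10 and 0.17 in Abca1+/+ Sham and TBI mice and 0.01 and 0.17 in Abca1+/- Sham and TBI mice. The E4/Abca1+/- TBI mouse with the highest Stx1a weighed on the last value. Without that mouse the highest fold change of any release gene was 0.08 in Abca1+/- TBI mice. It was 0.09 averaged, where 3 genes were still called. The Vamp2 call was lost under 3 of the alternatives.

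Whether the fall after injury differed between genotypes was tested as an interaction over the 4 groups concerned. No release gene was called for Abca1 by injury within APOE3 or APOE4, or for isoform by injury within Abca1+/+ or Abca1+/- mice, and 0% of all genes were called in each (edgeR, with 327, 730, 337 and 965 of all genes at an unadjusted p under 0.05). DESeq2 called 0 release genes in each. At an unadjusted p under 0.05, edgeR had 1, 0, 0 and 0 release genes in this order and DESeq2 1, 1, 0 and 1. The single edgeR gene was Vamp1 within APOE3, whose fall was smaller with 1 Abca1 copy by 0.32 (standard error 0.14, adjusted p = 1.00), and by 0.13 without the mouse of that comparison with high thalamus markers. Standard errors of the interactions ran from 0.04 to 0.24. The lower number of calls in E4/Abca1+/+ mice is therefore not shown to be a difference between genotypes.

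Sex gave a call for 1 of the 8 release genes, which is near the share of all genes called. Syt1 was the 1 gene called for sex over all mice (10.1% of all genes were), lower in females (−0.09 on the log2 scale, standard error 0.03, adjusted p = 0.0188). In Sham mice Syt1 was 1986 to 2303 CPM in 14 females (median 2128) and 1918 to 2432 CPM in 15 males (median 2242.7). After TBI it was 1578 to 1947 CPM in 14 females (median 1788) and 1704 to 2385 CPM in 15 males (median 1959). Female and male mice overlapped in both states. For sex by injury 0 release genes were called by edgeR (0% of all genes, 1133 of them at an unadjusted p under 0.05) and 0 by DESeq2, with 1 at an unadjusted p under 0.05 in each, and Syt1 in edgeR was at −0.11 (adjusted p = 0.588).

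Called correlations between release genes were more numerous among injured than among Sham mice, and this difference was not tested. After subtracting group means, 5 of 28 gene pairs had a called correlation over 29 Sham mice and 14 of 28 over 29 TBI mice (Pearson's r of log2(CPM + 1), permutation within groups, adjusted over the 56 pairs). Pairs of other genes were not counted in this way, so these counts are not shown to be particular to the release genes. Median r was 0.05 in Sham and 0.42 in TBI mice, and 18 and 26 pairs were positive. In Sham mice Vamp2 and Syt1 were closest (r = 0.84, permutation p = 1e-05, adjusted p = 0.000280, rho = 0.86, permutation p = 2e-05, adjusted p = 0.000560). Leaving out the 2 mice farthest from the Vamp2 median gave r = 0.85. Snap25 followed both (r = 0.62 with Vamp2, permutation p = 0.00255, adjusted p = 0.0130, rho = 0.54, permutation p = 0.00859, and r = 0.61 with Syt1, permutation p = 0.00164, adjusted p = 0.0100, rho = 0.64, permutation p = 0.00116).

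In TBI mice the closest pair was Snap25 and Cplx1 (r = 0.77, permutation p = 1e-05, adjusted p = 0.000280, rho = 0.80, permutation p = 1e-05, adjusted p = 0.000560). The value was r = 0.74 when the 2 mice farthest from the Snap25 median were left out. Cplx1 had a called correlation with every gene but Nsf. The weakest, with Vamp2 (r = 0.49, permutation p = 0.0162, adjusted p = 0.0477), had a rho of 0.42 (permutation p = 0.0360, adjusted p = 0.0959), which was not called. Nsf had no called correlation in TBI mice, and its 1 in Sham mice was negative, with Stx1a (r = −0.47, permutation p = 0.0129, adjusted p = 0.0425, rho = −0.36, permutation p = 0.0656, adjusted p = 0.147). With all libraries thinned to a common total, r was 0.80 for Vamp2 and Syt1 in Sham and 0.81 for Snap25 and Cplx1 in TBI mice. The summed pan-neuronal markers given above also spread more among TBI (SD 248.7) than among Sham mice (SD 149), and their part in these correlations was not tested.

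**Figure D5:**
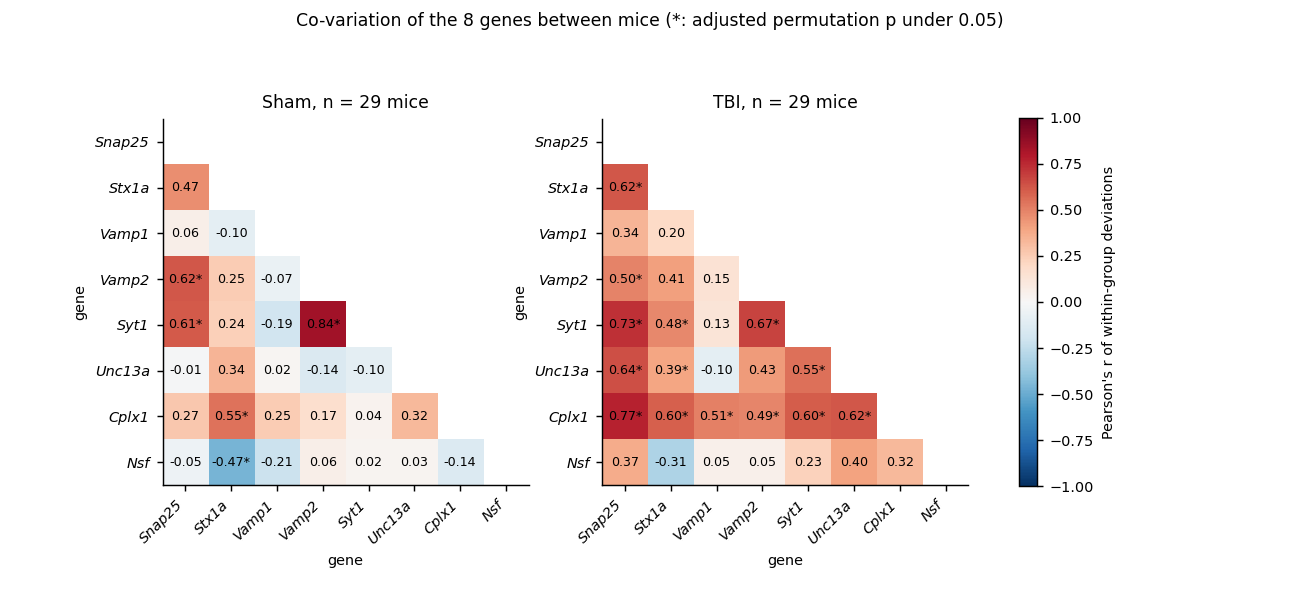
Pearson's r between release genes over 29 Sham (left) and 29 TBI mice (right), on log2(CPM + 1) with group means subtracted, as colour from −1 to 1 and as a number, with an asterisk for an adjusted permutation p under 0.05. In Sham mice 5 of 28 pairs carry an asterisk and in TBI mice 14 of 28.

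Over all genes, the transcripts whose level followed each release gene most closely across the 29 Sham mice were found by Pearson's r, as a description with no test. Snap25 was closest to Pak1 (r = 0.80), Got1 (0.79) and Ndfip2 (0.77), and Stx1a to Actr1b (0.81), Ephb6 (0.80) and C130074G19Rik (0.77). Without the E4/Abca1+/+ Sham mouse with high thalamus markers, the r of Stx1a with these were 0.73, 0.81 and 0.73. Vamp1 was closest to Ccdc184 (0.80), Esyt1 (0.78) and Slc6a9 (0.78), with Spearman's rho of 0.68, 0.68 and 0.61, and without the E4/Abca1+/+ Sham mouse with high thalamus markers these r were 0.69, 0.70 and 0.56. Vamp2 and Syt1 were near each other, with Slc5a5 (0.80) and Gnb1 (0.79) next to Vamp2, and Septin3 (0.85) and Rtn3 (0.82) next to Syt1. Unc13a was nearest to Mical2 (0.80), Otud7a (0.77) and Ccna1 (0.76), the last at a Sham mean of only 0.98 CPM. Cplx1 was nearest to Kcnab3 (0.84), Adap1 (0.84) and Fbxo31 (0.80), and Nsf to Hspa12a (0.84), St6galnac5 (0.82) and Atp1b1 (0.79). Of these neighbours, Kcnab3, a potassium channel subunit, had a log2 fold change of −0.76 after TBI (adjusted p = 3.80e-12), larger than that of Cplx1 itself, whereas Esyt1 was higher (0.41, adjusted p = 0.000108).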

How the data were processed

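Bulk RNA from cortex and hippocampus of the injury site was sequenced in 58 mice. Per the labels and the study's methods, the authors aligned reads to mm10 and counted them per gene (Subread 1.5.0, featureCounts), and deposited raw read counts per gene. The annotation and strand setting of the counting are not given in the sources used here. From the deposited counts, 2 lines with no gene were removed and 23 symbols that a spreadsheet had turned into dates were repaired, which left 15171 genes, and no pair of mice of a group had identical values.

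TMM factors (0.954 to 1.04) and filterByExpr over all 58 mice (0 genes removed) preceded edgeR 4.0.16 quasi-likelihood tests (R 4.3.3), with Benjamini-Hochberg adjustment over all genes and a threshold of 0.05. Single comparisons used the groups compared, and averaged ones all 58 mice. These settings were first applied within each comparison's mice and were moved to all mice after the results had been seen. Members and gene lists were chosen with earlier results of these data known. Of each list, up to 2 genes in each direction with the smallest p were named, and for each release gene the 3 genes with the highest Pearson's r in Sham mice. The genes that this rule names for the SNARE relatives are not reported here.

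Levels relative to neuronal markers used log2(CPM + 1) and permutation tests (exact, or 100000 resamples). Their p-values were planned as adjusted over the 8 genes and were computed so first. Unadjusted values are printed instead, a change made after the results were seen, with limma 3.58.1 over all genes added. DESeq2 1.42.0, other scalings, filters, thinning and left-out mice served as alternatives. Gene positions are from GENCODE (GRCm38).

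The edgeR steps were tested on simulated data: for TBI against Sham in E3/Abca1+/+ mice (15131 genes), 13, 31, 46 and 49 of 50 genes changed by 0.25, 0.5, 1 and 2 on the log2 scale were recovered, with 4 false among 143 calls. For the same comparison in E4/Abca1+/- mice (15153 genes), 14, 33, 44 and 50 of 50 were recovered, with 10 false among 151 calls. For Abca1 by injury within APOE4 (15163 genes), 6, 19, 43 and 47 of 50 were recovered, with 2 false among 117 calls. The changed genes were split evenly between rises and falls, and all other genes were left unchanged. The scaling was therefore not tested under the wider and uneven shifts seen after TBI.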

Additional observations from a re-analysis of the deposited data

Results flagged for a closer look

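Each release gene was examined in each of the 8 groups for a mouse far from the rest (Dixon's test at the 95% level), and 8 of 64 gene and group pairs had one, where chance gives about 1 in 20, or 3.2. The genes are read from the same mice, so these are not independent.

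Vamp1 had a high mouse in 3 groups, at 173.16 CPM in an E3/Abca1+/- TBI mouse (next 113.9), 248.72 CPM in an E4/Abca1+/+ Sham mouse (next 156) and 209.51 CPM in an E4/Abca1+/+ TBI mouse (next 107). These were the 3 mice with the highest summed thalamus markers of all 58, at 127, 208 and 162 CPM. Each also had the highest summed level of its group for the 7 genes listed for parvalbumin interneurons and axons. Summed pan-neuronal markers were highest of the group in the E4/Abca1+/+ TBI mouse (4201 CPM) and lowest in the E3/Abca1+/- TBI mouse (3893 CPM). The part of these signals in the Vamp1 level was not tested beyond the values without these mice.

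Stx1a was low, at 222.85 CPM (next 265), in the same E4/Abca1+/+ Sham mouse. It was high, at 230.55 CPM (next 210.2), in an E3/Abca1+/+ TBI mouse with the highest summed choroid plexus markers (1347 CPM) and oligodendrocyte markers (3265 CPM) of its group. It was highest of all 58 mice, at 334.62 CPM (next in its group 237), in the E4/Abca1+/- TBI mouse with the lowest hippocampus and highest cortex markers of its group.

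Snap25, at 1781 CPM (next 2399.5), and Nsf, at 903.9 CPM (next 1217), were lowest in a single E3/Abca1+/+ TBI mouse. That mouse had the highest summed astrocyte markers of its group (9678 CPM, the others 7227 to 8134) and the lowest summed pan-neuronal markers (3303.5 CPM, the others 3734 to 4172). Without it, in E3/Abca1+/+ mice Snap25 was at −0.34 (edgeR adjusted p = 2.93e-07) and Nsf at −0.09 (edgeR adjusted p = 0.129), and averaged over genotypes Nsf was at −0.12 (edgeR adjusted p = 3.60e-06).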

How the results depend on the processing

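No called direction turned under any alternative, and all 8 genes stayed lower after TBI averaged over genotypes. Counts of release genes moved by over 1.5 times in 2 comparisons and by less in others. For APOE4 against APOE3 in Abca1+/- TBI mice, 0 became 1 (Cplx1) with DESeq2, without the E4/Abca1+/- TBI mouse with the lowest hippocampus markers and in one fit over 58 mice (adjusted p = 0.0201, 0.0355 and 0.0156). For levels relative to neurons in E4/Abca1+/- mice, 4 became 2 with the median of the neuronal list (Snap25, permutation p = 0.0563, and Unc13a, permutation p = 0.0583, were lost). Counts lower after TBI went from 4 to between 3 and 6 in E4/Abca1+/+, from 7 to 8 in E4/Abca1+/- and from 7 to 6 or 8 in E3/Abca1+/+ mice, and the averaged isoform count from 3 to 2. Counts that passed in either direction relative to neurons went from 5 to 4 in E3/Abca1+/+, from 4 to 6 in E3/Abca1+/- and from 7 to 6 averaged with the second neuronal list, and from 2 to 3 in E4/Abca1+/+ with that list, the median of the first list or without the thalamus mice, and from 4 to 5 in E4/Abca1+/- without the hippocampus mouse. Stx1a in E4/Abca1+/- was called with DESeq2 (adjusted p = 0.0298), thinning (0.0201) and one fit (0.00634). Stx1a in E4/Abca1+/+ was lost with library totals (adjusted p = 0.104) and thinning (0.0532), and Vamp2 in E3/Abca1+/+ with library totals (adjusted p = 0.107). In E4/Abca1+/+, Syt1 and Vamp1 were called with sex as a covariate (adjusted p = 0.0199 and 0.0306) and in one fit (0.0176 and 0.00905), and Nsf in E3/Abca1+/+ in one fit (0.0258). The isoform call of Vamp2 was lost with library totals, thinning and without an E4/Abca1+/- Sham mouse with high Clec7a (adjusted p = 0.0845, 0.0725 and 0.0520). The cause was not tested. Of the values of single release genes after TBI, 371 kept their side of the threshold, 10 passed it and 3 lost it, and all 392 for Abca1 and all 336 interactions kept theirs. The settings with no filter and with at least 1 CPM in 6 mice tested the same 15171 genes as the main fit. Their values repeated the main ones, so their agreement was fixed in advance. Each of them holds 40 TBI, 40 Abca1 and 32 interaction values among those kept.

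Over all genes, genes lower in E4/Abca1+/+ went from 683 to 419 with library totals and 1043 with sex as a covariate, and in E4/Abca1+/- from 1923 to 1267 with library totals. With thinning, which left 14142 genes to test, genes higher after TBI went from 13.7% to 8.91% of those tested in E3/Abca1+/- and from 19.7% to 13.4% in E4/Abca1+/- mice. No paired analysis was possible, since each mouse had either TBI or Sham surgery and the labels name no pairs of mice. Single mice were left out by their marker levels, 4 of them chosen after the data were seen, and not each replicate in turn, since groups held 6 to 8 mice.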
